A study of Mus musculus with 7 samples.

Results

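The inter-implantation uterus is the stretch of uterine wall between the sites where embryos implant. It was profiled by single-cell RNA sequencing in Kdm6b cKO mice and in control mice at gestation days 12, 14, 16 and 18. Cells were taken from the authors' annotation wherever its location entry named the inter-implantation site and its timepoint was one of those days, which gave 29290 of the 107443 cells of the study (27.3%) and 8 of its 28 specimens. There was 1 specimen per genotype and day, so each comparison pairs 4 cKO with 4 control specimens by day. The wider study also sampled tissue of the implantation site and earlier days. Mice of both genotypes were pregnant and had no other treatment in the labels. The Kdm6b allele, the Cre driver, the age of the mice and the number of mice behind a specimen of these days were not in the labels used here. A specimen can therefore be 1 animal or a pool. The paired p-values rest on how the genotype difference varied between days. The spread between mice of 1 genotype and day was not measured.

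Kdm6b (also called JMJD3) encodes an enzyme that removes methyl groups from H3K27, a site on a histone. Polycomb complexes set that methylation, which keeps genes silent. The uterine wall holds the muscle of the myometrium, the stroma and epithelium of the endometrium, blood and lymph vessels, and immune cells. During pregnancy the myometrium stays quiet until it contracts at term, and the title of the study speaks of an epigenetic timer of gestation length. The comparison asked how the makeup of the tissue between implantation sites differed when Kdm6b was deleted, and when in late gestation it did so.

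The annotation gives each cell a Louvain cluster number at several resolutions, a cell cycle phase call and its depth, with no level of any gene. Cells of the 8 specimens fell into 18 coarse clusters (resolution 0.2) and 60 fine clusters (resolution 2). Clusters are called here by the authors' numbers, since no marker gene could be read. Kdm6b itself was not analysed here, and neither the labelled tissue nor the deletion could be checked against a gene. Shares of 1 specimen add up to the whole, so a larger share of some clusters goes with a smaller share of others.

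Specimens held 1769 to 4726 cells, and the smallest were the control of day 12 and the cKO of day 18, with 1769 and 1873. Each specimen's cells were tagged with lipid-linked oligonucleotides (hashing), and all 8 were in each of 3 pools (pools 6, 7 and 8 of the study, 9197, 10519 and 9574 of these cells), and the pools were added together. Depth, the number of unique molecular identifiers (UMIs, 1 per captured RNA molecule) in a cell, was lower on each later day in cKO tissue and higher at days 16 and 18 than before in control tissue. The median was 9978, 7453.5, 6847 and 6122 UMIs per cell in cKO specimens of days 12, 14, 16 and 18, and 4733, 6572.5, 9339 and 9040 in controls. The log2 difference averaged 0.06 over the 4 days (exact sign-flip permutation test over the 4 pairs, two-sided, p = 0.875), and the cKO specimen was the deeper of the pair on 2 of 4 days. Such a test has 16 arrangements and cannot give a p below 0.125. Genotype and day in the specimen names matched their own columns in every cell. In all, 75 barcodes occurred in more than 1 pool (0.257% of distinct barcodes), and 12% of those carried the same specimen in each pool, close to the 13.6% of random pairs of cells. The 95% intervals below are exact binomial ones, the limit for a count of 0 is 3 cells of the specimen, and both cover counting error only.

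Compositions differed more between genotypes than between pools of a specimen. The share of cells that would have to change coarse cluster to turn one composition into the other was 21.6%, 30.7%, 38.2% and 30.8% between cKO and control of days 12, 14, 16 and 18. Between pools of 1 specimen it was 2.28% to 10.3%, with a median of 6.02%. Different days of 1 genotype were 5.75% to 38.3% apart, with a median of 21.4%, so the genotypes of 1 day lay within the range that days cover. The control tissue of day 12 stood apart from later controls, at 28.5%, 38.1% and 38.3% from days 14, 16 and 18, which were 12.7% to 17.1% from one another. The cKO tissue of days 14 and 16 had the most alike compositions of any pair of days, 5.75% apart. At the fine resolution the genotypes of 1 day were 41.7% to 50.6% apart and pools of 1 specimen 7.34% to 18.03%.

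Coarse clusters 2, 5, 13 and 15 together made up a similar share of both genotypes at day 12 and a far larger share of cKO tissue afterwards. Their sum was 24.4%, 38.0%, 39.4% and 26.9% of cKO cells at days 12, 14, 16 and 18, against 25.7%, 8.84%, 7.76% and 7.83% of control cells. These 4 clusters were grouped after their values had been seen, so the sum is a description. Coarse cluster 0, the largest, showed the reverse from day 14. It held 37.4%, 30.4%, 28.5% and 36.5% of cKO cells and 29.4%, 44.3%, 59.6% and 49.9% of control cells, and its log2 difference of -0.43 (SE 0.33) did not pass (adjusted p = 0.493, edgeR).

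**Figure D1:**
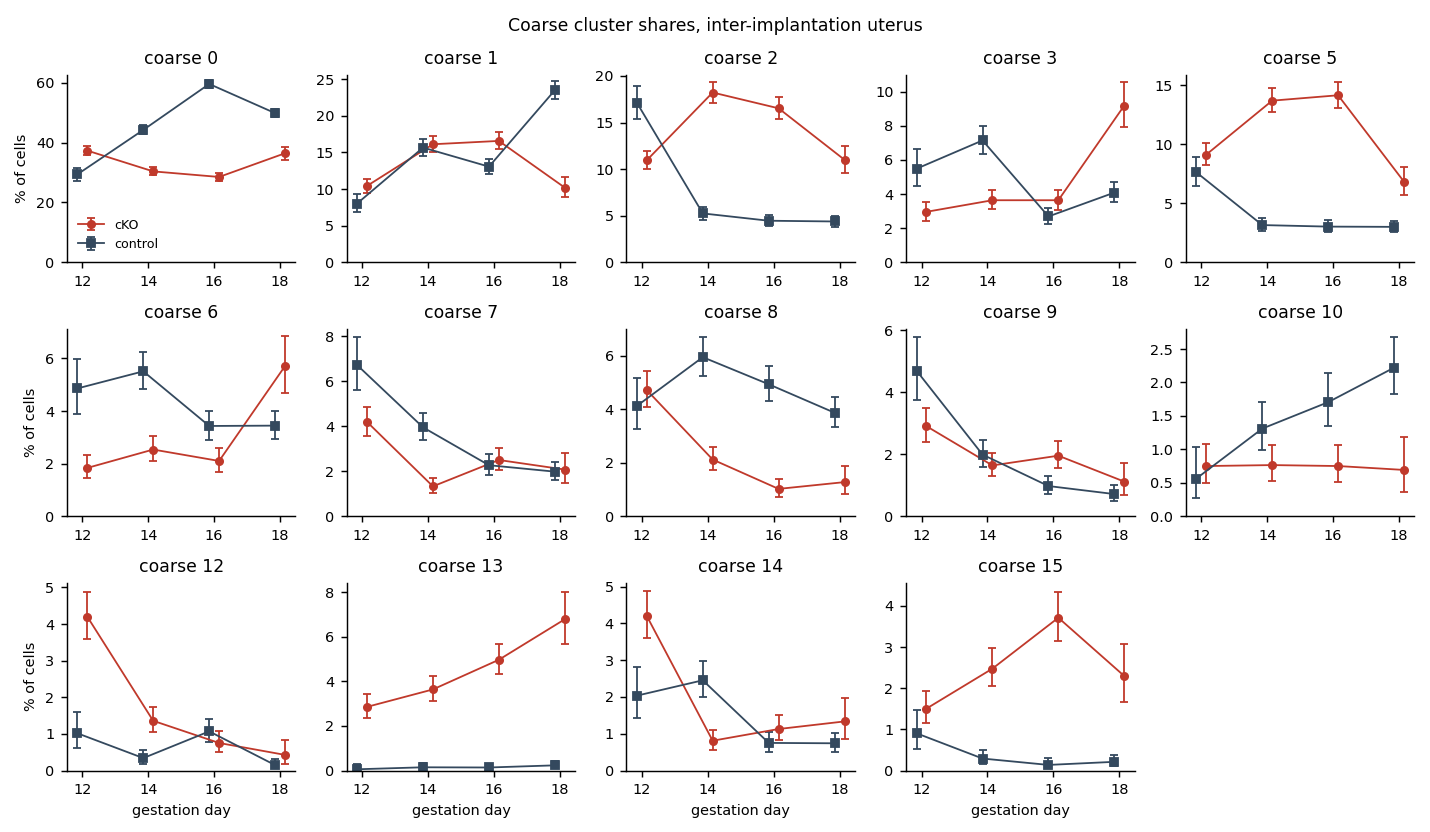
Share of a specimen's cells (%, y axis) in each coarse cluster by gestation day (x axis), for clusters with at least 1% of all 8 specimens' cells or past the threshold. Each point is 1 specimen, cKO in red circles and control in dark squares, with exact 95% intervals for counting error; in the panels of clusters 13 and 15 every cKO specimen lies above every control specimen.

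Of the 18 coarse clusters 2 passed (11.1%), both with a larger share in cKO, by edgeR's quasi-likelihood test with the day as a block and a Benjamini-Hochberg adjusted p under 0.05. A further 3 of the 18 had an unadjusted p under 0.05. The median log2 difference over all 18 was 0.02.

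Among these late-gestation specimens, coarse cluster 13 was found mostly in cKO tissue. It made up 2.85%, 3.64%, 4.96% and 6.78% of cKO cells at days 12, 14, 16 and 18, from 110, 166, 198 and 127 cells. In the controls it made up 0.0565%, 0.146%, 0.137% and 0.233%, from 1, 6, 6 and 11 cells. The groups did not overlap, and the lowest cKO share was more than 10 times the highest control share. The means were 4.56% ± 1.72 and 0.143% ± 0.0721 (SD, n = 4 each), a gap of 4.97 on the log2 scale (SE 0.58, adjusted p = 2.42e-10, edgeR). Within single pools its cKO shares ran from 2.67% to 7.98% and its control shares from 0% to 0.351%. The call held in 14 of 14 alternative settings. Its cells were deep, with a median of 26408 UMIs and 4456 genes. They carried a median of 160 hashing UMIs, against 216 over all cells. Whether doublets have a part in this cluster was not tested.

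The cells of coarse cluster 13 changed in phase calls and depth along gestation in cKO tissue. G2M calls made up 41.8%, 22.3%, 7.58% and 0.787% of them at days 12, 14, 16 and 18, while S calls made up 16.4%, 12.05%, 18.7% and 32.3%. The median depth was 34776, 27671.5, 25724 and 18740 UMIs on those days. Both G2M calls and depth also fell over all cells of the cKO specimens. There G2M calls were 17.8%, 12.7%, 9.33% and 7.47%, and median depth was 9978, 7453.5, 6847 and 6122 UMIs. There was 1 cKO specimen a day and at most 11 control cells, so the values of coarse cluster 13 have no replicate check and no genotype test.

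Coarse cluster 15 was the other call. Its share was 1.505%, 2.47%, 3.71% and 2.30% in cKO and 0.904%, 0.291%, 0.137% and 0.212% in control specimens of days 12 to 18. The groups did not overlap, and the nearest pair was day 12. On the log2 scale the gap was 2.98 (SE 0.84, adjusted p = 0.00689, edgeR), and the means were 2.497% ± 0.913 and 0.386% ± 0.351 (SD, n = 4 each). Its cells were shallow, with a median of 1164 UMIs and 522 genes, 0.868% mitochondrial and 7.78% ribosomal protein UMIs. The call was lost without the pair of day 14, 16 or 18, and in pool 7 alone. The adjusted p ran from 6.11e-06 to 0.611 over 13 alternatives (edgeR, limma or DESeq2), and the log2 difference from 2.42 to 3.71.

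Coarse clusters 5, 2 and 8 had values of the same kind that did not pass. Cluster 5 was higher in cKO on 4 of 4 days, at 9.13%, 13.7%, 14.2% and 6.83% against 7.63%, 3.16%, 3.03% and 3.00% (log2 difference 1.46, SE 0.56, adjusted p = 0.0745, edgeR). The groups overlapped because the control of day 12 lay above the cKO specimen of day 18. Cluster 2 was lower in cKO at day 12 and higher on the other 3 days, at 10.9%, 18.2%, 16.5% and 10.998% against 17.1%, 5.25%, 4.46% and 4.38% (1.13, SE 0.52, adjusted p = 0.12, edgeR). Cluster 8 had the lowest log2 difference of the clusters above 1% of cells, at 4.72%, 2.12%, 1.03% and 1.28% in cKO and 4.13%, 5.95%, 4.94% and 3.87% in control specimens (-1.30, SE 0.54, adjusted p = 0.0888, edgeR). At day 12 its cKO share was the higher, and from day 14 the cKO specimen held 0.208 to 0.357 times the control share. In the fit without the day 12 pair 5 coarse clusters passed, 4 of them higher in cKO, and clusters 2, 5 and 8 were among them.

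The remaining coarse clusters above 1% of cells had log2 differences between -0.83 (SE 0.93, cluster 10) and 1.26 (SE 0.94, cluster 12), and none passed (edgeR). Cluster 12 was at 4.20% in the cKO specimen of day 12 and at 0.427% to 1.36% in later ones, against 0.148% to 1.07% in controls. Its cells were mostly in G2M by call (73.9%). Cluster 10 was at 0.565%, 1.31%, 1.71% and 2.22% in controls of days 12 to 18 and lay between 0.694% and 0.767% in cKO. Cluster 6 was lower in cKO on the first 3 days, at 1.84%, 2.54% and 2.11% against 4.86%, 5.51% and 3.44%, and higher on day 18, at 5.71% against 3.45%. Cluster 3 was lower in cKO at days 12 and 14 and higher at days 16 and 18, with 9.18% against 4.08% at the last. Clusters 1, 7, 9 and 14 had log2 differences of -0.10, -0.51, 0.15 and 0.25 with standard errors of 0.46, 0.50, 0.49 and 0.66. A difference that misses the threshold with 4 pairs does not show that the genotypes are alike.

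Of the 46 fine clusters with a mean of at least 10 cells per specimen 7 passed (15.2%), 6 higher and 1 lower in cKO, and 9 had an unadjusted p under 0.05 (edgeR). The median log2 difference over the 46 was 0.07. With TMM factors it shifted by -0.20 to -0.12, with the same numbers of calls in each direction. Each of the 7 lay wholly or mostly in 1 coarse cluster. Fine 28 held 97.6% of coarse cluster 13, and fine 38 held nearly all of coarse cluster 15. Fine 0 and 13 were subsets of coarse cluster 0, fine 7 and 42 of coarse cluster 2, and 96.4% of fine 9 lay in coarse cluster 5.

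Fine 28 and fine 13 had the largest differences. Fine 28 was at 2.65%, 3.53%, 4.91% and 6.78% in cKO and 0.0565%, 0.146%, 0.137% and 0.233% in control specimens (log2 difference 4.94, SE 0.72, adjusted p = 4.74e-07, edgeR). Fine 13 ran the other way along the days. It was at 13.6%, 5.58%, 3.61% and 2.67% in cKO and 0.509%, 0.437%, 0.296% and 0.127% in control specimens (4.07, SE 0.63, adjusted p = 1.01e-06, edgeR). Neither cluster's groups overlapped. The cKO share of fine 28 was larger on each later day, and that of fine 13 was smaller on each later day. The control share too was higher at day 18 than at day 12 for fine 28 and lower for fine 13.

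Fine 42 is a small cluster of very deep cells, with a median of 32823 UMIs and 5719 genes. It was at 1.84%, 1.752%, 1.45% and 0.320% in cKO specimens, from 71, 80, 58 and 6 cells. In controls it was at 0.396%, 0.170%, 0.0455% and 0%, from 7, 7, 2 and 0 cells. The 0 of 4726 cells at day 18 allows a share of up to 0.0635% by the limit of 3 cells, and the exact 95% interval reaches 0.0780%. It was higher in cKO on 4 of 4 days, although the cKO specimen of day 18 lay under the control of day 12. On the log2 scale the gap was 3.64 (SE 0.81, adjusted p = 0.000699, edgeR), and the call held in the 12 alternatives that tested this cluster.

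Fine 9 had its largest cKO shares at days 14 and 16. Its share was 4.82%, 9.86%, 10.8% and 5.07% in cKO and 2.32%, 1.04%, 0.660% and 0.868% in control specimens, with no overlap (log2 difference 2.73, SE 0.65, adjusted p = 0.00141, edgeR). At day 16 the cKO share was 16.3 times the control share. Without the day 14 pair its adjusted p was 0.106 (edgeR), its highest over 14 alternatives. Fine 7 was at 2.26%, 9.31%, 7.47% and 3.68% in cKO and 2.60%, 1.34%, 0.774% and 0.719% in control specimens (2.13, SE 0.65, adjusted p = 0.0121, edgeR). At day 12 it was slightly the lower in cKO, and on the 3 later days it was 5.12 to 9.66 times the control share. It lost its call without the pair of day 14, 16 or 18 (adjusted p up to 0.247, edgeR).

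Fine 38 followed coarse cluster 15. It was at 1.61%, 2.69%, 4.01% and 2.35% in cKO and 0.904%, 0.267%, 0.205% and 0.233% in control specimens, with no overlap (log2 difference 2.96, SE 0.80, adjusted p = 0.00472, edgeR). It lost its call without the pair of day 14, 16 or 18, also with an adjusted p of up to 0.247 (edgeR). Fine 0 was the only 1 of the 46 to pass with a lower share in cKO. It was at 1.32%, 1.45%, 1.73% and 6.14% in cKO and 3.28%, 9.71%, 21.3% and 29.6% in control specimens (-2.49, SE 0.68, adjusted p = 0.00472, edgeR). It was lower in cKO on 4 of 4 days, and the groups overlapped because the cKO specimen of day 18 exceeded the control of day 12. Its adjusted p was 0.203 without the day 14 pair (edgeR). Fine 26 was also lower in cKO on 4 of 4 days without overlap, at 0.285% to 0.5015% against 0.637% to 1.58%, and did not pass (-1.29, SE 0.68, adjusted p = 0.305, edgeR). Of the other large fine clusters, fine 2, 3, 4 and 6 had log2 differences of -0.85, -0.38, 0.32 and -0.80 (SE 0.59 to 0.70) and did not pass.

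**Figure D2:**
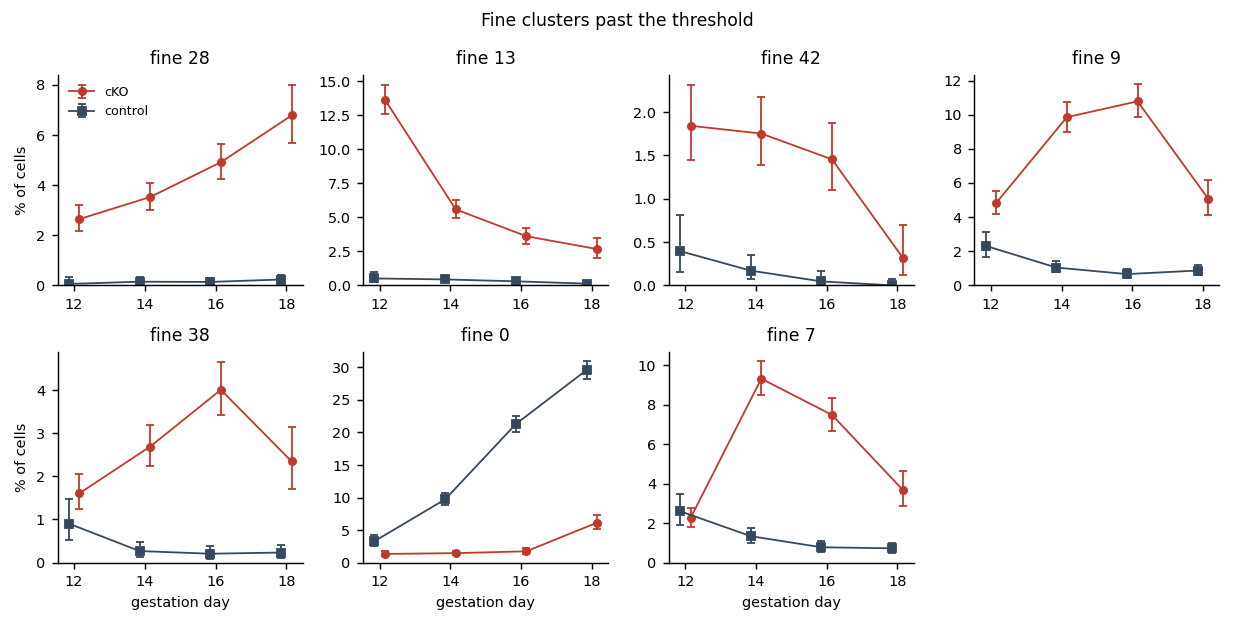
Share of a specimen's cells (%, y axis) by gestation day (x axis) in the 7 fine clusters past the threshold, cKO in red circles and control in dark squares, 1 specimen per point with exact 95% intervals for counting error. Fine 0 is the cluster with higher control points on every day, reaching 29.6% at day 18, and the other 6 have cKO points above control points on at least 3 of 4 days.

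Since the clusters share 1 total, the shares were also recomputed without coarse clusters 2, 5, 13 and 15, which was decided once the values were known. Both coarse clusters that passed, and fine 28, 38, 42, 7 and 9, lie wholly or mostly in those 4 and so could not be called there. In that reduced total 0 of 14 coarse clusters passed (edgeR, 0 with an unadjusted p under 0.05). Of 36 fine clusters 2 passed, fine 13 higher and fine 0 lower in cKO.

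Redistribution inside coarse clusters was tested with the coarse cluster's own cells as the total, which takes its share of the tissue out of the comparison. Of 40 combinations of a coarse and a fine cluster 9 passed (22.5%), 6 higher and 3 lower in cKO, and 12 had an unadjusted p under 0.05 (edgeR). They lay in coarse clusters 0, 2, 5 and 6. Only fine 13 within coarse cluster 0 kept its call in all of its alternatives (14 of 14). The other 8 were lost in 3 to 11 of their alternatives, and each of them was lost without the day 14 pair and without the day 16 pair.

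Inside coarse cluster 0, cells lay in fine 13 and fine 5 more often in cKO and in fine 0 less often. Fine 13 held 36.5%, 18.4%, 12.7% and 7.32% of the cluster's cKO cells at days 12 to 18 and 1.73%, 0.987%, 0.496% and 0.255% of its control cells (log2 difference 4.50, SE 0.20, adjusted p = 0.000155, edgeR). The groups did not overlap, and both genotypes had smaller shares on each later day. Fine 0 held 3.54%, 4.76%, 6.06% and 16.8% in cKO against 11.2%, 21.9%, 35.7% and 59.4% in control specimens (-2.06, SE 0.26, adjusted p = 0.0105, edgeR). It grew on each later day in both genotypes, and the cKO value of day 18 lay between the control values of days 12 and 14. Fine 5 held 25.6%, 12.97%, 11.2% and 10.7% against 8.46%, 9.33%, 6.49% and 3.27% (1.13, SE 0.28, adjusted p = 0.0477, edgeR), with no overlap. That last call held in 3 of 14 alternatives.

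Fine 4 and fine 2, also in coarse cluster 0, did not pass. Fine 4 held 9.17%, 25.9%, 40.2% and 17.3% of its cKO cells and 9.62%, 11.6%, 15.1% and 12.52% of its control cells (log2 difference 0.76, SE 0.32, adjusted p = 0.196, edgeR). Fine 2 held 7.15%, 21.8%, 10.6% and 23.3% against 32.3%, 33.8%, 17.2% and 4.71% (-0.39, SE 0.82, adjusted p = 0.862, edgeR). Its direction turned at day 18. Fine 29, with a median of 838 genes per cell, was at 23.7% in the control of day 12 and at 1.78% to 7.03% in the other 7 specimens.

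Inside coarse cluster 2, cells were in fine 7 and fine 42 more often in cKO and in fine 10 less often. Fine 7 held 20.6%, 51.1%, 45.2% and 33.5% of the cKO cells against 15.2%, 25.5%, 17.4% and 16.4% of the control cells (log2 difference 0.96, SE 0.21, adjusted p = 0.0325, edgeR). Fine 42 held 16.8%, 9.62%, 8.80% and 2.91% against 2.31%, 3.24%, 1.02% and 0% (2.62, SE 0.53, adjusted p = 0.0325, edgeR). Fine 10 held 21.8%, 11.1%, 13.8% and 32.0% against 43.6%, 32.9%, 39.8% and 44.4% (-1.14, SE 0.25, adjusted p = 0.0325, edgeR). Each of the 3 had its direction on 4 of 4 days, and the groups of fine 10 did not overlap. In cells with at least 1000 genes none of the 3 passed.

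Inside coarse cluster 5, fine 9 took the larger part of cKO cells. It held 48.6%, 70.9%, 74.2% and 68.0% of them at days 12 to 18 and 29.6%, 31.5%, 21.1% and 26.8% of control cells, with no overlap (log2 difference 1.26, SE 0.24, adjusted p = 0.0325, edgeR). Fine 27, whose cells had a median of 819 UMIs, held 3.98%, 4.15%, 5.84% and 2.34% against 11.9%, 7.69%, 11.3% and 7.75% (-1.23, SE 0.26, adjusted p = 0.0325, edgeR), a call that held in 3 of 10 alternatives. Fine 41 grew in control tissue and not in cKO tissue. It held 2.96%, 17.7%, 24.8% and 43.0% of the control cells and 3.98%, 2.08%, 1.95% and 3.91% of the cKO cells, but did not pass (-2.61, SE 0.78, adjusted p = 0.0814, edgeR). Fine 25 was at 30.7%, 15.3%, 5.84% and 17.97% against 46.7%, 37.7%, 31.6% and 11.3% (-0.95, SE 0.55, adjusted p = 0.341, edgeR).

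Inside coarse cluster 6, fine 16 held 32.4%, 24.1%, 22.6% and 23.4% of cKO cells and 12.8%, 8.81%, 8.61% and 9.20% of control cells, with no overlap (log2 difference 1.38, SE 0.20, adjusted p = 0.0151, edgeR). These shares rest on 19 to 28 cKO and 11 to 20 control cells per specimen. Fine 16 had a median of 1077 UMIs and the highest median mitochondrial percent of the 46 fine clusters tested (14%). Its median depth ran from 565 to 24283.5 UMIs over the specimens, with no order by genotype. Fine 23 was at 28.2%, 31.9%, 13.1% and 19.6% against 44.2%, 59.9%, 43.7% and 15.95% (-0.75, SE 0.38, adjusted p = 0.289, edgeR).

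No combination inside coarse clusters 1, 3, 4, 7, 8 and 9 passed (edgeR). The nearest were fine 26 in coarse cluster 7, at 11.1%, 21.3%, 20% and 20.5% of the coarse cluster's cKO cells against 23.5%, 35.0%, 28.0% and 36.2% of its control cells (log2 difference -0.77, SE 0.23, adjusted p = 0.0814, edgeR), and fine 17 in coarse cluster 3. Fine 17 held 47.4%, 28.9%, 34.5% and 20.3% of the cKO cells of coarse cluster 3 against 30.9%, 18.7%, 7.63% and 2.59% of the control cells (1.47, SE 0.51, adjusted p = 0.12, edgeR). In coarse cluster 8, whose share was low in cKO from day 14, fine 19 and fine 21 differed by 0.17 (SE 0.16) and -0.33 (SE 0.21) on the log2 scale.

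**Figure D3:**
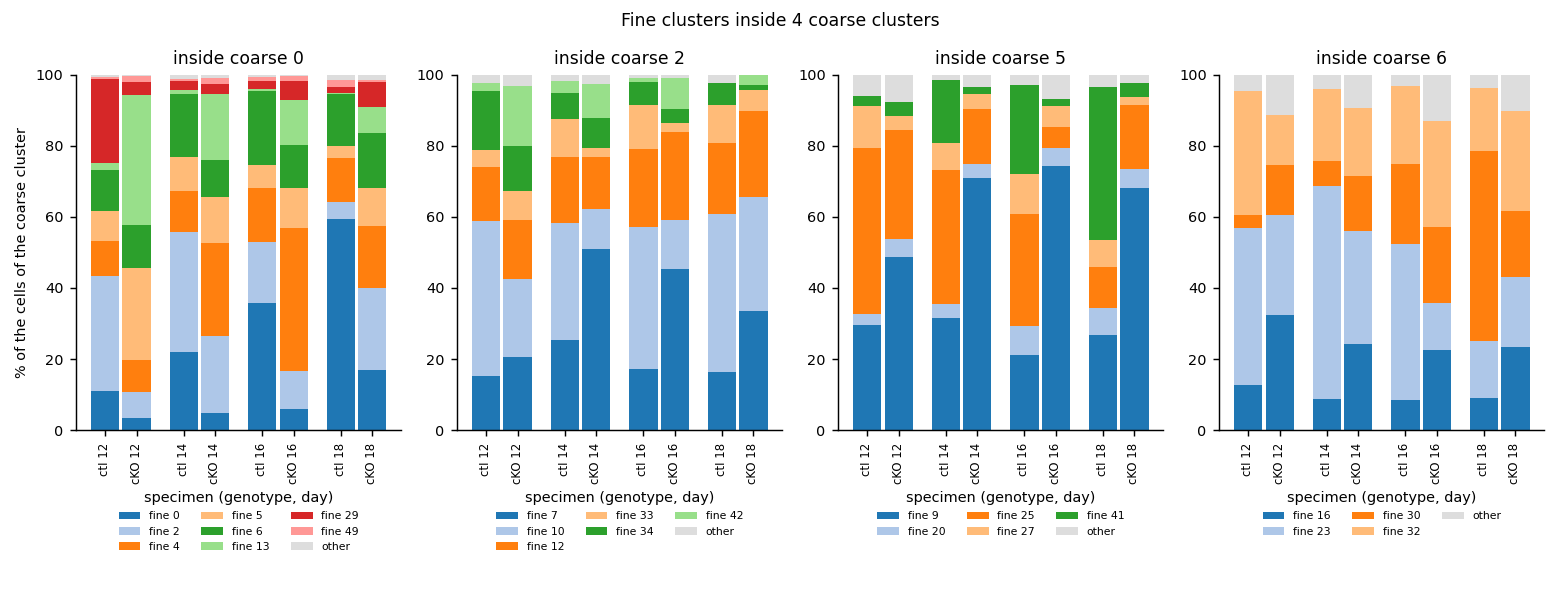
Makeup of coarse clusters 0, 2, 5 and 6 by fine cluster (% of the coarse cluster's cells, y axis) in each of the 8 specimens (x axis, ctl for control), with fine clusters of under 10 cells per specimen in grey. The light green band of fine 13 in coarse cluster 0 falls from 36.5% to 7.32% of cKO cells, and the dark blue band of fine 9 in coarse cluster 5 spans 48.6% to 74.2% of cKO cells and 21.1% to 31.5% of control cells.

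The authors called each cell G1, S (DNA synthesis) or G2M (the stages up to division) from its expression. Over all cells, G2M calls were more frequent in cKO tissue on every day. They made up 17.8%, 12.7%, 9.33% and 7.47% of cKO cells and 14.1%, 6.65%, 3.85% and 5.12% of control cells. The means were 11.8% ± 4.54 and 7.44% ± 4.61 (SD, n = 4 each), and the difference of 4.38 percentage points had p = 0.125 in the exact sign-flip permutation test, the smallest it can give, and 0.75 after adjustment over 6 measures. When both genotypes were weighted to one composition over 11 coarse clusters, the difference was 2.23 points and still positive on 4 of 4 days (exact permutation test, p = 0.125). In cells with at least 1000 genes it was 4.20 points and positive on 3 of 4 days (exact permutation test, p = 0.25). S calls averaged 9.10% in both genotypes. Mitochondrial percent averaged 2.51 and 2.41, and ribosomal percent 24.2 and 24.5, in cKO and control specimens (exact permutation tests, p = 0.5 and 0.625).

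Within coarse clusters 1 of 21 phase shares passed (4.76%), and it was the only one with an unadjusted p under 0.05 (edgeR). It was the S share of coarse cluster 2, which fell in cKO. It was 9.72%, 8.77%, 9.41% and 14.1% in cKO and 14.2%, 13.9%, 12.2% and 21.3% in control specimens (log2 difference -0.55, SE 0.13, adjusted p = 0.0193, edgeR). The cKO value was the lower on 4 of 4 days, and the groups overlapped. The call held in 3 of 9 alternatives and in none of the 4 fits without a day's pair, and limma called 0. Median depth in this cluster was 11433, 9676.5, 6479 and 4530 UMIs in cKO and 5368, 5377, 5384 and 4709 in control specimens. The cKO cells were the deeper at days 12, 14 and 16 and slightly the shallower at day 18. The call held with the specimen's median UMIs over all cells as covariate. Phase calls come from cells of unequal depth that could not be thinned. The part of the cells' own depth or of free RNA in them was not tested.

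G2M shares were higher in cKO on 4 of 4 days in coarse clusters 1, 7 and 9 without passing. In coarse cluster 1 they were 27.4%, 17.0%, 10.3% and 14.7% against 14.8%, 9.77%, 8.54% and 11.4% (log2 difference 0.58, SE 0.34, adjusted p = 0.667, edgeR). In coarse cluster 9 they were 28.6%, 28.0%, 30.8% and 19.0% against 25.3%, 17.1%, 4.65% and 17.6% (0.76, SE 0.55, adjusted p = 0.838, edgeR). Cluster 0 had few such cells in either genotype, at most 5.19%.

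Median UMIs within coarse clusters gave no call among 11 tested (0.0%, limma), with 0 at an unadjusted p under 0.05. The widest gap was in coarse cluster 6. Its median was 3729, 1252, 821 and 916 UMIs in cKO and 1213, 4007, 5110 and 9005 in control specimens (log2 difference -1.498, SE 0.83, adjusted p = 0.564, limma). From day 14 every cKO value there lay under every control value of those days, while day 12 was reversed. This is the cluster in which fine 16 made up a larger part of cKO cells. The call of fine 16 held with the specimen's median UMIs over all cells as covariate. The part of depth within the cluster in that difference was not tested.

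**Figure D4:**
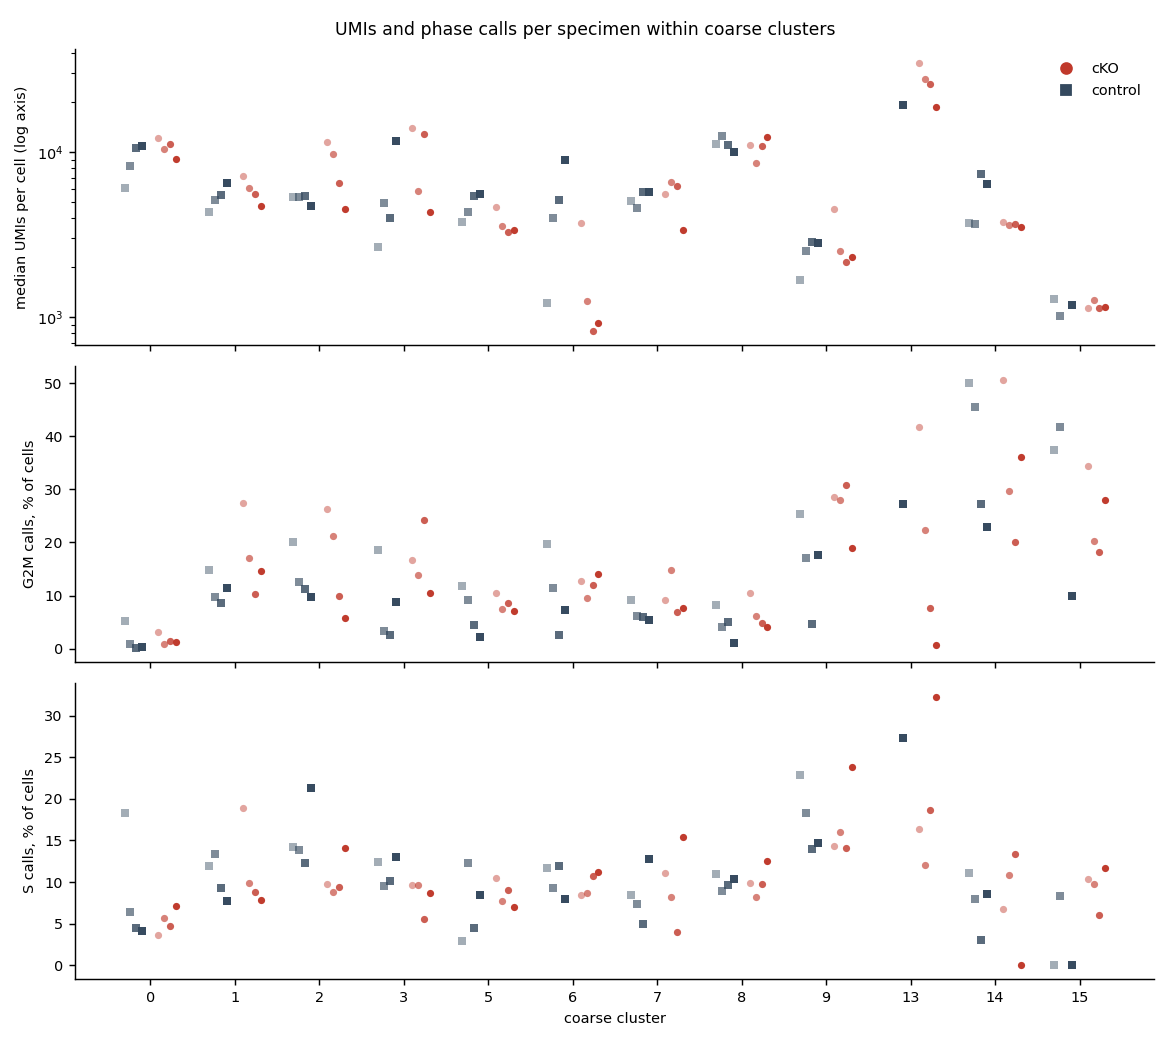
Median UMIs per cell on a log axis (top), percent of cells called G2M (middle) and called S (bottom) within coarse clusters (x axis), 1 point per specimen of at least 10 cells, cKO in red circles and control in dark squares, with shading that darkens from day 12 to day 18. In coarse cluster 13 the cKO points for G2M run from 41.8% at day 12 to 0.787% at day 18.

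The deposited embedding is a map that places cells with like expression near each other. Inside some of the large groups of cells there, gains and losses of cKO tissue lay side by side. Coarse cluster 0 had a region with more and a region with fewer cKO cells, and so did coarse clusters 1 and 2. The bin at the median position of coarse cluster 5 held 0.416% of cKO and 0.0769% of control cells. Coarse cluster 13 stood as a compact spot that few control cells entered.

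**Figure D5:**
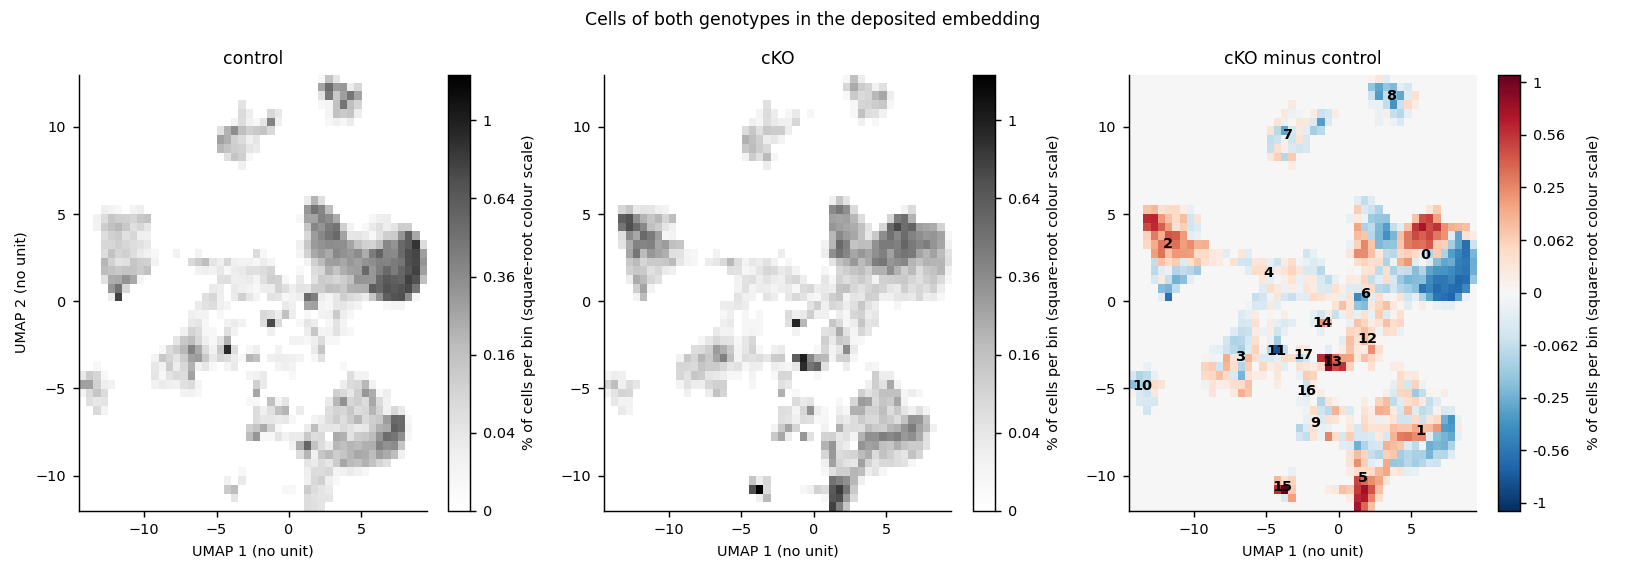
Percent of a specimen's cells per square bin of the authors' UMAP embedding, averaged over the 4 control specimens (left) and the 4 cKO specimens (middle), and cKO minus control (right, red where cKO is higher), on square-root colour scales; the axes have no unit and numbers mark the median position of each coarse cluster. Red and blue regions adjoin within coarse clusters 0 and 2, and clusters 13 and 15 appear as small red spots.

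The genotype differences of late gestation were then set against those of days 5 and 8 in the same tissue. Of 48 fine clusters 2 differed between the day classes (4.17%), fine 28 by 3.92 (SE 1.02, adjusted p = 0.00804, edgeR) and fine 13 by 3.26 (SE 0.97, adjusted p = 0.0232, edgeR) on the log2 scale, both more in favour of cKO in late gestation. Both held in 7 of 7 alternatives. At days 5 and 8 fine 28 made up 0.363% and 3.44% of cKO cells and 0.116% and 2.23% of control cells, so the early control of day 8 lay well above every late control. Fine 13 was at 0.846% and 1.27% in cKO on those days, with controls at 0.320% and 1.05%. On the early days fine 38 was at most 0.0241% in cKO and 0.0581% in control specimens, and fine 9 was at most 0.698% in any. Fine 42 was at least 0.913% in early controls and at most 0.396% in late controls. Its early cKO shares were 1.54% and 0.650%, within the range of late cKO specimens. Fine 7 was at 4.23% and 2.48% in early cKO and at 6.77% and 2.15% in early control specimens. In non-pregnant tissue fine 28 was at 2.47% in cKO and 2.60% in control, and fine 42 at 1.29% and 1.13%. Late controls of fine 28 and 42 lay under the non-pregnant control. The differences of fine 38, 9, 7, 42 and 0 between day classes were 4.85, 2.35, 2.37, 3.69 and -2.81 on the log2 scale and did not pass (adjusted p = 0.0703 to 0.102, edgeR). Days 5 and 8 and the non-pregnant specimens came from another experimental batch, so day class and batch cannot be told apart.

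Against the implantation site at days 12 to 18 (14 specimens, 7 per genotype), 5 of 50 fine clusters had a genotype difference that was more in favour of cKO in inter-implantation tissue (10.0%, edgeR). The log2 differences between the sites were 4.73 for fine 28 (SE 0.71), 3.23 for fine 13 (SE 0.56), 3.85 for fine 42 (SE 0.84), 2.31 for fine 9 (SE 0.58) and 2.43 for fine 7 (SE 0.62). Their adjusted p-values were 3.62e-06, 2.87e-05, 0.000835, 0.00342 and 0.00342 (edgeR). Of the 14 implantation-site specimens 4 shared the experimental batch of the inter-implantation specimens, so site and batch are largely mixed. Among the specimens of that batch alone, a setting added once the values were known, the differences were 3.81 (SE 1.46), 2.46 (SE 0.98), 4.69 (SE 1.21), 2.79 (SE 0.99) and 2.78 (SE 0.93) in the same order. The implantation-site specimens of that batch were of days 12 and 18 only, so site is also mixed with day there. The widest gaps of fine 7 in inter-implantation tissue were at days 14 and 16, which have no such counterpart. In that batch fine 42 and fine 7 passed (adjusted p = 0.00707 and 0.0484, edgeR), and fine 28, 13 and 9 did not (adjusted p = 0.0911, 0.0985 and 0.0617, edgeR). All 5 held in the other 7 alternatives. At the implantation site fine 42 was at 0.198% ± 0.154 in cKO and 0.248% ± 0.208 in control specimens (SD, n = 7 each), and fine 7 at 3.33% ± 1.37 and 3.97% ± 1.38. Fine 28 was at 0.438% ± 0.219 and 0.420% ± 0.284 there, and fine 9 at 4.14% ± 2.87 and 3.40% ± 2.73. Fine 13 was at 2.67% ± 3.58 in cKO and 1.08% ± 0.717 in control specimens of that site. In the shared batch its shares there were 10.5% and 2.16% at day 12 and 0.751% and 0.426% at day 18. Fine 0 and fine 38 did not pass in this comparison (-1.70, adjusted p = 0.0538, and 2.12, adjusted p = 0.0722, edgeR). The specimens of both sites may come from the same mice, which the annotation does not tell.

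A slope of the genotype difference on the day was tested after the data had been seen. Of 46 fine clusters 9 passed (19.6%), fine 1, 14, 17, 18, 29 and 32 with a difference that moved toward cKO on later days and fine 24, 35 and 49 with the reverse (edgeR). Fine 28 and fine 13 did not pass, at -0.027 and -0.068 per day on the log2 scale (SE 0.20 and 0.28, adjusted p = 0.895 and 0.856, edgeR). Fine 14, a subset of coarse cluster 3, was at 0.674%, 1.64%, 0.978% and 5.45% in cKO and 2.04%, 4.76%, 1.09% and 0.339% in control specimens (0.91 per day on the log2 scale, SE 0.21, adjusted p = 0.00126, edgeR). Fine 24, a subset of coarse cluster 1 in which 73.1% of cells were called G2M, was at 3.40%, 2.54%, 1.76% and 0.801% in cKO and 0.565%, 1.24%, 1.02% and 3.07% in control specimens (-0.69 per day, SE 0.24, adjusted p = 0.0259, edgeR). Without the pair of day 12, 14, 16 or 18, 6, 0, 1 and 0 slopes passed (edgeR). Depth also moved with the day, as cKO specimens were the deeper at days 12 and 14 and controls at days 16 and 18. Median depth was 540, 3834.5, 25551, 13871, 1796 and 538.5 UMIs in fine 1, 14, 17, 18, 29 and 32. It was 8999, 15859.5 and 28367.5 UMIs in fine 24, 35 and 49. The part of depth in these slopes was not tested.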

How the data were processed

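The authors deposited 1 annotation table for all cells and pools. It was the input here, and no gene values were used. Per the labels' protocols, minced frozen tissue was digested, samples had at least 70% viable cells, 125000 cells per sample were pooled after hashing, 340000 cells were loaded, and sequencing of the droplet 3' libraries reached 30000 reads per cell. The submitters' processing notes name Cell Ranger, Seurat and mm10 (mouse), with no versions or settings given in the sources used here. Per the file headers, UMI, gene and hashing counts were deposited as whole numbers without normalization. Mitochondrial and ribosomal percent were deposited per cell, the former at most 20%. The deposited S and G2M score values were not used, only the phase calls made from them. Filtering, the assignment to specimens and the Louvain clusters are the authors'. No doublet caller was run. No cell had more than 4 hashing oligonucleotides detected, while the pools held 12 specimens, and all shares depend on how the authors assigned cells.

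Cells per cluster and specimen were tested with edgeR 4.0.16 in R 4.3.3 (quasi-likelihood F test, robust, all cells of the specimen as library size, no composition factor, genotype plus day as factor), for clusters with a mean of at least 10 cells per specimen. Redistribution and phase tests used the coarse cluster's cells as total, in coarse clusters with at least 20 cells in every specimen, and phases needed a mean of 5 cells. Median UMIs were tested with limma 3.58.1 on the log2 scale. Standard errors were derived from the log2 difference and F. The fits have 3 residual degrees of freedom among specimens, so p-values depend on variance information borrowed from other clusters. Pairs share a gestation day by design. Single values were compared by exact sign-flip tests. Alternatives were TMM factors, DESeq2 1.42.0, limma on logit shares (0.5 added), no filter, no day term, cells with at least 1000 genes, median UMIs as covariate, single pools, other resolutions each day's pair left out and, for the site comparison, the batch shared by both sites. Named are coarse clusters with at least 1% of cells or past the threshold, and fine clusters or combinations past the threshold or among the 5 largest; others were named after their values were seen. The specimens, comparisons and rules were chosen with earlier results of these data known.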

Additional observations from a re-analysis of the deposited data

Results flagged for a closer look

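In 6 of 62 groups of 4 specimens 1 value stood far from the other 3, by the ratio of its gap to the range of the group; chance flags about 1 in 20 groups. The control of day 12 did so in coarse cluster 2 (17.1%), coarse cluster 5 (7.63%) and fine 38 (0.904%), each time as the highest control. The cKO specimen of day 18 did so in coarse cluster 3 (9.18%) and fine 0 (6.14%), and the cKO specimen of day 12 in coarse cluster 14 (4.20%), each as the highest cKO value. The control of day 12 and the cKO specimen of day 18 also held the fewest cells and the lowest median UMIs of their genotype, and the part of depth in these values was not tested.

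The genotype difference of fine 28 and fine 13 was larger at days 12 to 18 than at days 5 and 8, by 3.92 and 3.26 on the log2 scale, where batch and day class cannot be told apart. It was larger in inter-implantation tissue than at the implantation site by 4.73 for fine 28, 3.23 for fine 13, 3.85 for fine 42, 2.31 for fine 9 and 2.43 for fine 7. Of the 14 implantation-site specimens 4 shared the batch of the inter-implantation specimens, and these were of days 12 and 18 only. Within that batch fine 28, 13 and 9 did not pass (adjusted p = 0.0911, 0.0985 and 0.0617, edgeR).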

How the results depend on the processing

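Of the log2 differences and single values recomputed for named clusters and measures, 560 kept their direction and side of the threshold, 102 kept the direction and lost the call, 10 gained one and 24 changed sign. With 2 coarse clusters called, DESeq2 gave 4, median UMIs as covariate 4, cells with at least 1000 genes 1, pool 7 alone 1, and the total without coarse clusters 2, 5, 13 and 15 gave 0. Leaving out 1 day's pair gave 1 to 5. With 7 fine clusters called, DESeq2 and the UMI covariate gave 11 each, that reduced total (which removes 5 of the 7 and both coarse clusters called) gave 2, resolutions 0.4 and 0.6 gave 3 each, and leaving out a pair gave 3 to 10. With 9 redistributions called, TMM factors gave 5, cells with at least 1000 genes 2, pools 6 and 7 alone 3 and 4, and leaving out a pair 1 to 8. Without the replicate block (the pairing by day left out) redistributions numbered 5 and phase shares 0, against 9 and 1 with it, and fine clusters 7 in both. The phase call was also lost in limma (0) and without any 1 pair (0 to 0). Day class differences, 2 with all specimens, numbered 4 in limma and 2 to 9 without a pair, site differences 5 to 8 and day slopes 0 to 6. Site differences, 5 with all specimens, numbered 3 in the batch shared by both sites. That batch holds fewer specimens, and its implantation-site specimens were of days 12 and 18 only.

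Changes of sign were in uncalled values. Coarse cluster 1 was at 0.0037 in cells with at least 1000 genes, at 0.27 in the reduced total and at -0.26 to 0.25 without a pair. Coarse cluster 3 was at 0.17 in cells with at least 1000 genes, 0.0069 with the UMI covariate, 0.14 in pool 7, 0.31 in the reduced total and -0.48 to 0.25 without a pair. Coarse cluster 9 was at -0.11 without the block, -0.43 in pool 6 and -0.13 to 0.44 without a pair, and coarse cluster 14 at -0.066 in pool 6 and -0.054 to 0.83 without a pair. Without a pair fine 3 ran from -0.72 to 0.15, and fine 2 within coarse cluster 0 from -1.14 to 0.24. Weighted to one composition the difference in ribosomal percent was 0.0103 and in S percent -1.73. Without a pair ribosomal percent, S percent, log2 UMIs and log2 genes ran from -1.04 to 0.55, -1.16 to 1.35, -0.28 to 0.27 and -0.12 to 0.21. The cause of these changes was not tested. Few cells limit control shares of coarse cluster 13, fine 28 and fine 42, with 0 to 11 cells per specimen.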
